A study of Drosophila melanogaster with 2 samples.

Results

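The genes of the oxidative phosphorylation complexes were taken as every protein-coding gene of the Ensembl annotation of dm6 (the Release 6 fly genome) whose symbol begins with ND-, UQCR-, COX and a digit, ATPsyn, or Sdh and a capital letter, together with blw. This rule found 88 of the 13968 protein-coding genes on the 7 chromosome arms. By symbol, 40 of these were counted under complex I, 7 under complex II, 9 under complex III, 16 under complex IV and 16 under complex V. A symbol that ends in L, or in L and a digit, marks a paralogue of a subunit gene (COX7AL2 beside COX7A). The 88 genes hold 24 such L paralogues and 64 other genes, with ND-MNLL, whose final L is part of the subunit name, counted among the 64.

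Binding of Gsc was measured by chromatin immunoprecipitation and sequencing (ChIP-seq) in Drosophila melanogaster. There was 1 group, of 2 biological replicates: whole embryos of 0 to 24 h from the strain Gsc-GFP, which carries a Gsc-eGFP fusion, precipitated with an antibody against GFP after sonication to fragments of 200 to 800 bp. Gsc (Goosecoid) is a homeodomain transcription factor. The labels do not say which promoter drives the fusion. No control library was analysed. With no second condition and 2 replicates, no test over samples was possible, and every comparison here is a description. Whole embryos pool all cell types and stages of the window, so binding in more cells and stronger binding in each cell cannot be told apart, and binding lists hold no expression values with which to check the labelled material against cell markers.

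Oxidative phosphorylation takes place in the inner mitochondrial membrane. Complexes I and II pass electrons from NADH and succinate to ubiquinone, complex III passes them on to cytochrome c, complex IV passes them to oxygen, and complex V (ATP synthase) uses the proton gradient that complexes I, III and IV build up to make ATP. Most subunits are coded by nuclear genes, the ones described here, and a few by mitochondrial DNA. In flies, many subunit genes have duplicates that are used mainly in the testis.

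Few of these genes, and few protein-coding genes in general, had a region that passed the authors' threshold. The main list, the thresholded list of both replicates together, held 1470 regions on the arms. Each region was given to the gene with a transcription start site (TSS) nearest to its summit. Of the 88 genes, 3 (3.41%, 95% Wilson interval 1.17 to 9.55%) were nearest to a region, against 8.06% of all protein-coding genes. They were blw of complex V, COX7AL2 of complex IV and UQCR-11 of complex III. No gene of complex I (0 of 40) or complex II (0 of 7) was nearest to a main-list region. When instead every gene with a TSS within 500 bp of a summit was counted, 4 of the 88 (4.55%, interval 1.78 to 11.1%) had one, against 5.34% of all genes. These were blw and 3 genes of complex I, ND-MWFE, ND-ASHI and ND-51, each of which shares its region with another gene whose start site is nearer. The intervals cover counting error over genes only. The genes are a fixed set read in the same 2 replicates, so the intervals are no test of a gap to all genes. The length over which a gene's start sites are the nearest had a median of 2.61 kb for the 88 genes and 4.33 kb over all genes. Its part in the nearest-gene shares was not tested.

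The sequences at the summits of these regions are shown because they are the bound DNA on which the few calls rest. Each is read 5′ to 3′ on the plus strand of dm6, and the first 4 hold 60 bases on either side of the summit, so that the summit is base 61 of 121. Capitals mark TAAT on either strand (ATTA on the printed strand), the core that many homeodomains recognise, and GAGAG on either strand (CTCTC), the core of the GAGA factor site. The region between the start sites of ND-42 and Cchl, just under the threshold, is added. It is cut at its left end, where an exon of Cchl lies, to 91 bases, and its summit is base 31. The regions of blw and ND-MWFE are given by coordinates only.
COX7AL2, chr2L:2201243-2201363: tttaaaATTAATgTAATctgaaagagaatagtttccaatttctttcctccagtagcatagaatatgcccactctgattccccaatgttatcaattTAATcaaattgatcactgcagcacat
UQCR-11, chr3L:25163403-25163523: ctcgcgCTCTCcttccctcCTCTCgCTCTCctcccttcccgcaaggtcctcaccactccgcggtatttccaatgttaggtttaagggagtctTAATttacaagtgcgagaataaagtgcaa
ND-ASHI, chrX:6679327-6679447: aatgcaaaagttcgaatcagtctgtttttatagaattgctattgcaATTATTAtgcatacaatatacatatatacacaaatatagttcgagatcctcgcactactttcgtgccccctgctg
ND-51, chr2L:6062816-6062936: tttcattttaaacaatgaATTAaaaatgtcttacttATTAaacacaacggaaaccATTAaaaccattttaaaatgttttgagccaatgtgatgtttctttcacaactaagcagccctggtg
ND-42, chr3R:22027481-22027571: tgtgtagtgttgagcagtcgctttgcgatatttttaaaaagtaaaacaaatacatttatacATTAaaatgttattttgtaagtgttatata

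The 121 bases at COX7AL2 hold 4 copies of TAAT, those at ND-51 hold 3, those at ND-ASHI hold 2 and those at UQCR-11 hold 1. TAAT is common: 77.4% of all 1470 main-list regions hold it in the same window, with a median of 2 copies. The longer word TAATCC, bound by homeodomains of the Goosecoid and Bicoid type, was not within 50 bp of the summit at blw, COX7AL2, UQCR-11, ND-MWFE, ND-ASHI or ND-51. It was within 50 bp of the summit in 3.67% of all main-list regions. Only the UQCR-11 window holds GAGAG, in 3 copies, all in the pyrimidine-rich stretch left of the summit, and 10.4% of all main-list regions hold it. The UQCR-11 window is also the one richest in G and C, at 51.2%, against 29.8% at ND-51, 32.2% at COX7AL2 and 34.7% at ND-ASHI. The median over all main-list regions was 33.9%, with quartiles of 28.9 and 42.1%.

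The region of complex V lies at blw, which codes for the alpha subunit of the catalytic head of ATP synthase. It spans chr2R:22798791-22799126, between genes, with its summit 140 bp upstream of the blw TSS (blw lies at chr2R:22799099-22802180, plus strand). No other protein-coding TSS lies within 500 bp. The signal value, the authors' own measure of the strength of a region, was 183 in the list of both replicates together, rank 298 of 1470 (the score, which is scaled to at most 1000, was at this cap). In the replicates' own lists it was 90.4 in replicate 1 and 87.8 in replicate 2 (mean 89.1 ± 1.84, SD, n = 2). Further pairs of replicate values give replicate 1 and then replicate 2. The replicates thus differed little, and both of their thresholded lists held the region. It was the only region of the main list that was nearest to an oxidative phosphorylation gene and within 500 bp of its start site.

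The region of complex IV lies near COX7AL2, a paralogue of the gene for a small subunit of cytochrome c oxidase. It spans chr2L:2201135-2201470, between genes, 3391 bp upstream of the nearest COX7AL2 TSS (the gene lies at chr2L:2192525-2197912, minus strand). The signal value was 114 with both replicates together, rank 593 of 1470. The replicates gave 52.4 and 65.5 (59.0 ± 9.25, SD, n = 2), and both thresholded lists held it. It is also the only region of the ranked list of both replicates together that was given to COX7AL2, whose start sites are the nearest over 9.36 kb. The ranked list of replicate 1 gave it 1 region and that of replicate 2 gave it 3.

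The region of complex III, given to UQCR-11, the gene for a small subunit of the cytochrome bc1 complex, is weak and remote. It spans chr3L:25163295-25163630, between genes and 42714 bp downstream of the UQCR-11 TSS, in the part of arm 3L near the centromere. Its score was 887, over the threshold of 830, and its signal value was 57.7, rank 1378 of 1470. The replicates gave 32.7 and 31.1 (31.9 ± 1.14, SD, n = 2). Neither replicate's own thresholded list held it, although the conservative thresholded list did.

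The strongest region within 500 bp of a start site of these genes is at ND-MWFE, which codes for a small membrane subunit of complex I. It spans chr2R:13158424-13158559, with a signal value of 240, rank 185 of 1470. Its summit lies 193 bp upstream of the ND-MWFE TSS and 28 bp from a TSS of TppII, the gene for tripeptidyl-peptidase II, in an intron of TppII. The replicates gave 136 and 100.1 (118 ± 25.2, SD, n = 2), and both thresholded lists held it.

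ND-ASHI, another membrane subunit gene of complex I, overlaps Fum1, which codes for fumarase of the citrate cycle, on the other strand. The region at chrX:6679324-6679425 lies in an intron of Fum1, with its summit 253 bp from a TSS of Fum1 and 269 bp upstream of that of ND-ASHI. Its signal value was 201, rank 252 of 1470, with 121 in replicate 1 and 94.2 in replicate 2 (108 ± 18.9, SD, n = 2). Both thresholded lists held it. In replicate 2 the summit was 261 bp from each of the start sites, so which of the genes it was given to there is arbitrary.

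ND-51 codes for the flavoprotein subunit of complex I that binds NADH. Its region at chr2L:6062708-6063043 lies between the start sites of ND-51 and CG13994, which point away from each other 232 bp apart. The summit was 119 bp from ND-51 and 113 bp from CG13994. Its signal value was 73.4, rank 1080 of 1470, and its score 988. Replicate 1 gave 51.8 and replicate 2 gave 24.1 (38.0 ± 19.6, SD, n = 2). This is the widest spread among the 6 regions relative to the mean. The thresholded list of replicate 1 held the region and that of replicate 2 and the conservative list did not.

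**Figure D1:**
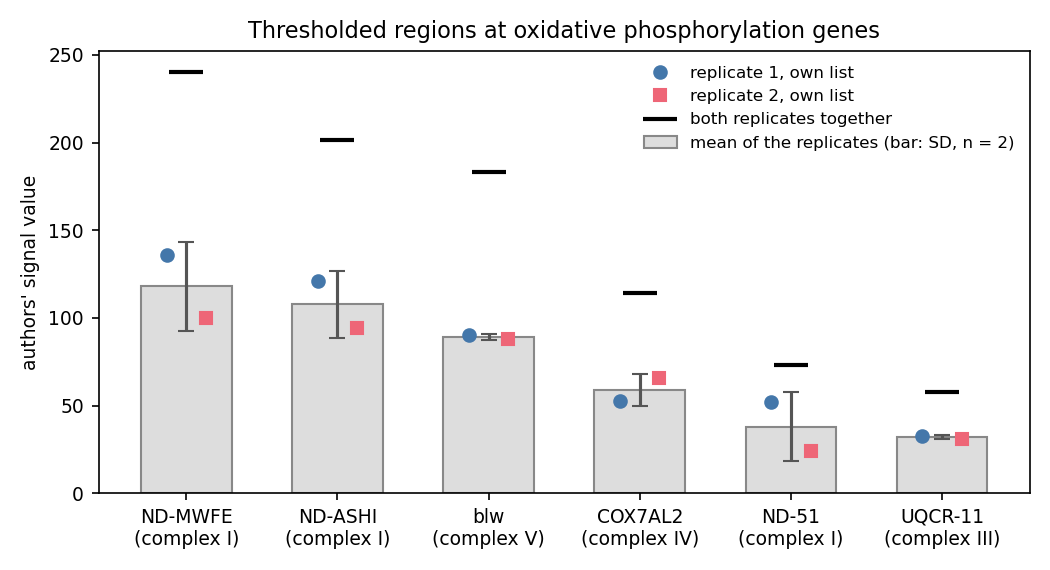
Signal value (the authors' unit, linear axis) of the 6 main-list regions at oxidative phosphorylation genes. Circles and squares are the replicates' own lists, grey bars their mean with the SD over the 2 replicates, and black dashes the list of both replicates together; replicate 1 lies above replicate 2 at ND-MWFE (136 and 100.1) and ND-51 (51.8 and 24.1), and the replicates nearly coincide at blw (90.4 and 87.8).

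Each replicate's own thresholded list also gave 3 of the 88 genes as nearest, against 6.28% of all genes in replicate 1 and 5.0% in replicate 2. Replicate 1 had blw, COX7AL2 and ND-51, and replicate 2 had blw, COX7AL2 and ND-ASHI, so that blw and COX7AL2 were the genes found in both. Within 500 bp of a start site, replicate 1 had 4 of the 88 genes (4.76% of all genes) and replicate 2 had 3 (3.67% of all genes). ND-51 was the gene by which the replicates differed. The conservative list gave 5 genes as nearest (7.67% of all genes) and 3 within 500 bp (4.98% of all genes). It added ND-MLRQ and COX4 to blw, COX7AL2 and UQCR-11.

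ND-MLRQ, named for a small subunit once assigned to complex I and counted there by its symbol, had 2 conservative-list regions, and both were far off. The one at chr3L:23408669-23409004 had a signal value of 70.7, lay 69511 bp from the TSS and fell in annotated transposable elements. The replicates gave 33.5 and 32.1 there. The other, at chr3L:23420892-23421227, had a signal value of 62.3 and lay 81734 bp away. COX4 codes for a core-associated subunit of cytochrome c oxidase. Its conservative-list region at chr2L:19955583-19955918 lay 2962 bp from a COX4 TSS, in the coding sequence of sick, with a signal value of 65.3 and replicate values of 34.6 and 28.4.

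Below the threshold, the ranked list of both replicates together, which holds candidate regions with their scores, had 117578 regions on the arms. It lacks some candidates of single replicates, such as 2 regions given to ND-SGDH in replicate 1. Of the 88 genes, 28 (31.8%, Wilson interval 23.0 to 42.1%) had a ranked region within 500 bp of a TSS, against 48.8% of all protein-coding genes. This interval, too, covers counting error over genes only and is no test of the gap. The lists of single replicates gave 28 genes each, against 49.8% of all genes in replicate 1 and 45.4% in replicate 2. The ranked list behind the conservative list gave 27, against 48.4%. By complex the counts were 13 of 40 (32.5%) in complex I, 5 of 7 (71.4%) in complex II, 3 of 9 (33.3%) in complex III, 4 of 16 (25%) in complex IV and 3 of 16 (18.8%) in complex V. The order of the complexes was not the same in single replicates. Complex II had 2 of 7 (28.6%) in replicate 1 and 5 of 7 in replicate 2, and complex V had 7 of 16 (43.8%) in replicate 1 and 6 of 16 (37.5%) in replicate 2. Mitochondrial ribosomal protein genes (mRpL and mRpS), the other large set of nuclear genes for mitochondrial machinery, had 23 of 73 (31.5%), and cytosolic ribosomal protein genes had 28 of 92 (30.4%). The share was thus close to that of both ribosomal families. In the main list the families differed more: 9 of 73 mitochondrial ribosomal protein genes (12.3%) and 5 of 92 cytosolic ones (5.43%) had a region within 500 bp, beside 4 of 88 (4.55%) oxidative phosphorylation genes.

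**Figure D2:**
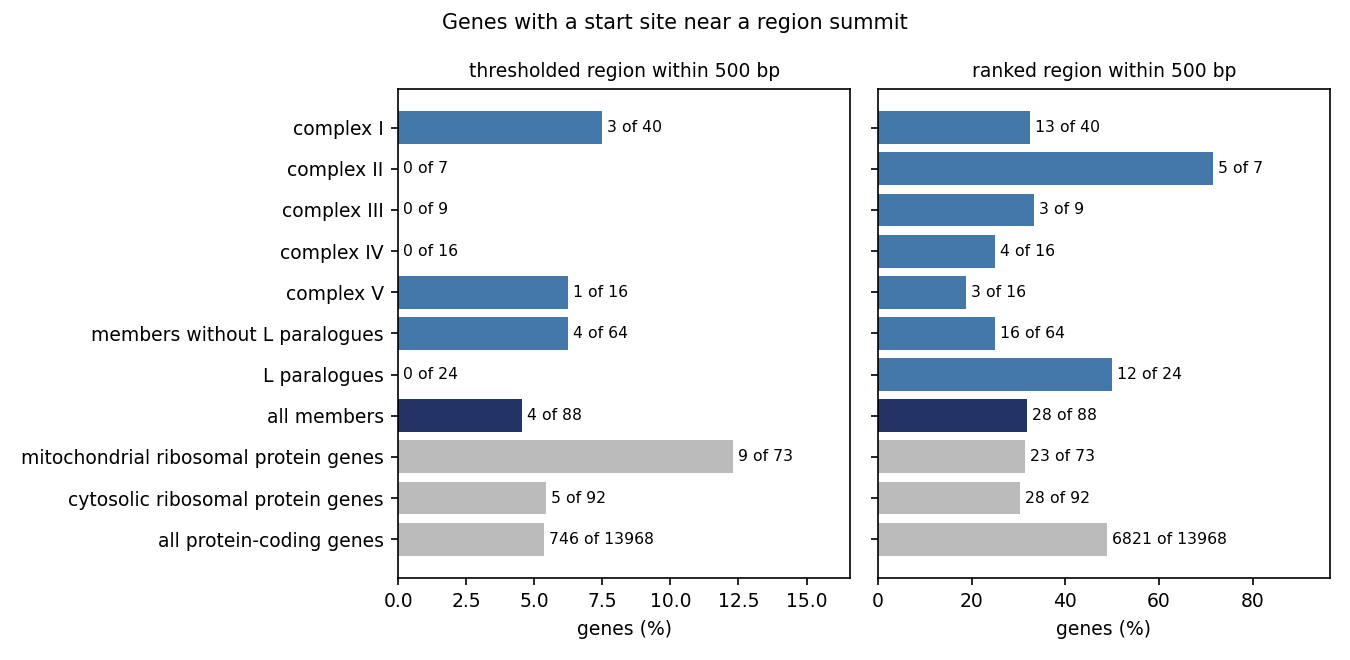
Share of genes (%) with a TSS within 500 bp of a summit of the main list (left) and of the ranked list (right), with the counts beside each bar. Blue bars are oxidative phosphorylation genes by complex and by kind, and grey bars the ribosomal families and all protein-coding genes; in the ranked list all 88 genes stand at 31.8% and all protein-coding genes at 48.8%, while complex II stands at 71.4% on 7 genes (28.6% in the ranked list of replicate 1).

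The genes outside the L paralogues carried the low share. Of these 64, 16 (25%) had a ranked region within 500 bp, and of the 24 L paralogues 12 (50%), close to the 48.8% over all genes. Counted by nearest start site, 43 of the 88 genes (48.9%) had at least 1 ranked region, against 66.2% of all genes. The ranked lists of the replicates gave 46 genes in replicate 1, against 70.1% of all genes, and 41 in replicate 2, against 67.9%, and the one behind the conservative list gave 43, against 65.8%. In the ranked list of both replicates together the other 45 genes (51.1%) had none, against 33.8% of all genes. These were 40 of the 64 genes without the suffix (62.5%) and 5 of the 24 L paralogues (20.8%). L paralogues also have more room around them. The length over which a gene's start sites are the nearest had a median of 4.82 kb for L paralogues and 2.30 kb for the other 64, with 4.33 kb over all protein-coding genes. Per kb of this length, ranked regions numbered 1.20 for L paralogues, 0.734 for the others and 0.855 over all genes. The value of the others rests mostly on UQCR-11, ND-MLRQ and ND-AGGG, with 259, 111 and 56 of their 488 regions. These genes hold 278, 108 and 90.2 kb of the 665 kb. The median number of ranked regions per gene was 4.5 for L paralogues, 0 for the others and 3 over all genes.

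With the genes split by this length, the 88 genes had a ranked region within 500 bp less often than all genes in every class, in these libraries and without a test. The shares were 34.5% against 43.1% under 2 kb, 24.3% against 44.9% from 2 to 5 kb, 44.4% against 50.2% from 5 to 10 kb, and 38.5% against 58.6% at 10 kb and over. Among the 7 genes at 10 kb and over that are no L paralogues, none had such a region, and 5 of the 6 L paralogues of that class did. ND-B14.7, a membrane subunit gene of complex I, had no region given to it over 19.1 kb in the ranked list of both replicates together or in that of replicate 2, and 2 in that of replicate 1. ND-39 of complex I had none over 10.5 kb, and ATPsynbeta, the gene for the catalytic beta subunit of ATP synthase, had none over 10.2 kb on chromosome 4, in the joint ranked lists and in those of both replicates. For main-list regions within 500 bp, the shares of the 88 genes and of all genes were close below 5 kb. They were 6.9% against 6.43% under 2 kb, and 5.41% against 5.54% from 2 to 5 kb. From 5 to 10 kb they were 0% against 4.28%, and at 10 kb and over 0% against 4.81%.

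**Figure D3:**
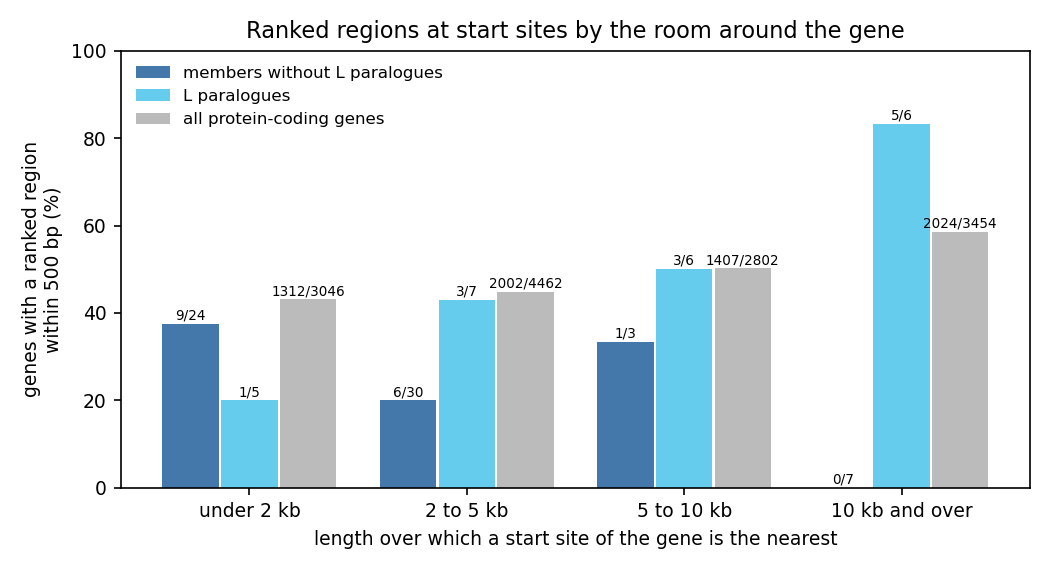
Share of genes (%) with a ranked region within 500 bp of a TSS, by the length over which the gene's start sites are the nearest. The counts stand above the bars; oxidative phosphorylation genes other than L paralogues (dark blue) lie below all protein-coding genes (grey) in each class, while L paralogues (light blue) reach 5 of 6 at 10 kb and over.

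The candidate regions at start sites below the threshold were 32 pairs of a gene and a region over 24 genes, with signal values of 2.72 to 55.4. Of these, 16 lay in coding sequence, 7 between genes, 5 in introns, 3 in 5′ UTRs and 1 in a 3′ UTR. In 14 of the 32 both replicates' own ranked lists held the region. At all 16 pairs of L paralogues the paralogue's own start site was the nearest, and 10 of these summits lay in coding sequence. At the 16 pairs of other genes the own start site was nearest in 8. The strongest lay 2 bp from a TSS of COX6AL (complex IV), with a signal value of 55.4 and replicate values of 25.8 and 17.7, at a score of 384. The second, at a score of 767, lay at chr3R:22027343-22027678 between ND-42, a peripheral subunit gene of complex I, and Cchl, which codes for the lyase that attaches heme to cytochrome c. Its signal value was 54.4, with 29.3 and 24.9 in the replicates, and it was 198 bp from ND-42. ATPsynCF6, the gene for coupling factor 6 of the ATP synthase stalk, had 2 such regions, at 38.7 (18.4 and 21.4 in the replicates) and 36.5 (21.1 and 16.7). The weakest, at 2.72, was that of ND-PDSW.

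Complex II, which couples the citrate cycle to the respiratory chain, is small enough to be given gene by gene. SdhA, the flavoprotein subunit, had 1 ranked region, at 24.7 and 2745 bp from a TSS in its own coding sequence, with 4.11 in replicate 1 and 13.8 in replicate 2. SdhB, the iron-sulfur subunit, had its strongest region at 34.8, in an intron 268 bp from a TSS, found in replicate 2 only, at 29.7. SdhC, a membrane anchor, had none. SdhD, the other anchor, had its strongest at 23.7, at 626 bp, with 13.8 and 12.0 in the replicates. Among the paralogues, SdhAL had 29.0 at 1079 bp, seen in replicate 2 only at 15.4, and SdhBL had 25.04 at 2679 bp, with 14.9 and 7.10. SdhCL had 51.5 at 8836 bp, with 27.1 and 29.5. The highest score of any ranked region given to the 7 genes was 371, at SdhCL, beside the threshold of 830.

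The unoccupied genes with the strongest ranked regions were mostly paralogues. After ND-MLRQ (70.7) and COX4 (65.3) came UQCR-14L of complex III, at 62.5 and a score of 821, just under the threshold of 830. It lay 5022 bp from the TSS, with 36.3 and 27.1 in the replicates. ND-49L followed at 60.2 (29.4 and 20.7 in the replicates), 11123 bp away in an intron of Fur1, then ND-24L at 59.9 (26.5 and 18.8), 14483 bp away, and ND-20L at 59.8 (35.8 and 19.1), 2415 bp away. These last 3 belong to complex I.

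Most ranked regions given to oxidative phosphorylation genes came from a few genes with large gene-poor surroundings. Of 791 ranked regions, 259 (32.7%) were nearest to UQCR-11, 111 (14.0%) to ND-MLRQ, 58 (7.33%) to ND-B14.5AL and 56 (7.08%) to ND-AGGG. All 4 genes lie on 3L, from 2984 to 5503 kb from its centromeric end. Their 484 regions (61.2%) had a median distance of 69907.5 bp, and 1 lay within 500 bp, at ND-B14.5AL. Per complex the 791 regions were 356 for complex I, 57 for II, 276 for III, 29 for IV and 73 for V. Per kb of the length over which the start sites are nearest, complex II had 1.43, complex III 0.900, complex V 0.876, complex I 0.828 and complex IV 0.502 ranked regions. The value over all 88 genes was 0.862, and over all protein-coding genes 0.855. Without L paralogues, complex II had 0.816, complex III 0.904, complex V 0.492, complex I 0.619 and complex IV 0.430. UQCR-11 alone had 259 of the 276 regions of complex III, and SdhCL had 35 of the 57 of complex II. All 791 had a median signal value of 20.7 and a median distance of 22878 bp, and 25 (3.16%) lay within 500 bp. The 117578 ranked regions of the arms had a median signal value of 19.9, a median distance of 5229.5 bp, and 8.75% within 500 bp.

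**Figure D4:**
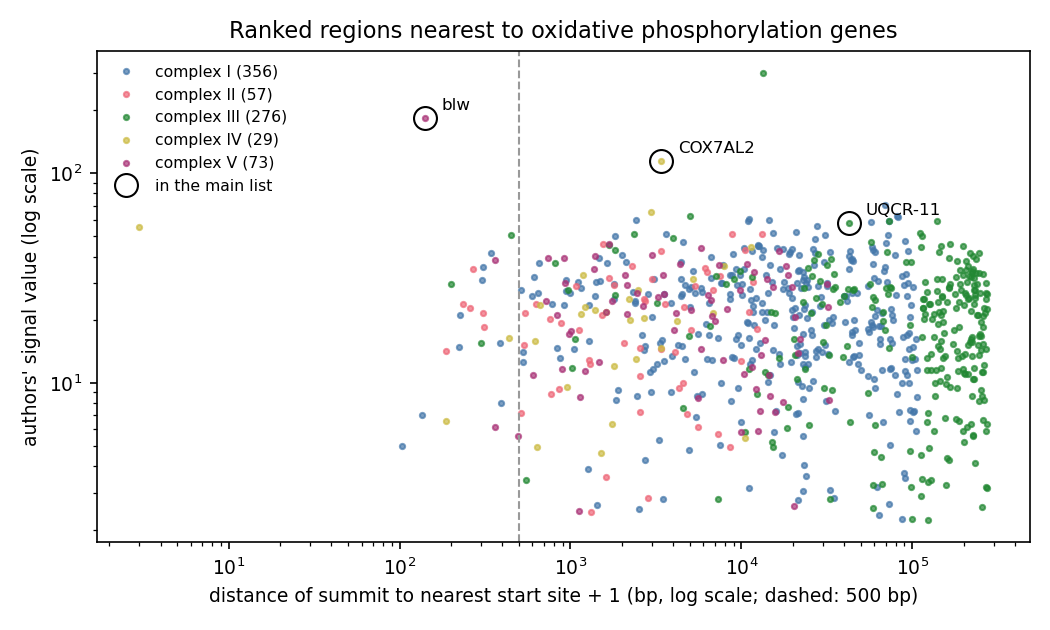
Distance of the summit to the nearest TSS plus 1 (bp, log axis) and signal value (log axis) of the 791 ranked regions nearest to oxidative phosphorylation genes, coloured by complex with their number in the legend. Black rings mark the 3 regions of the main list, of which blw alone lies left of the dashed line at 500 bp; the highest point, at 299, is a region near UQCR-11 that the main list lacks.

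The strongest ranked region given to any of the 88 genes was absent from the thresholded lists. It spans chr3L:25133968-25134133, 13305 bp downstream of UQCR-11 and inside an annotated R1 transposable element, with a score of 1000 and a signal value of 299. The replicates gave 133 and 171 (152 ± 26.8, SD, n = 2). It is 1 of 130 ranked regions on the arms whose score reaches the threshold but which the main list lacks. Why these were left out is not given in the sources used here. Counting them added no further oxidative phosphorylation gene.

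Start sites of these genes are often paired with that of a neighbour. For pairing, each gene was given 1 start site, its outermost 5′ end, whereas regions were counted at the TSS of any transcript. An opposite-strand start site of another protein-coding gene lay within 500 bp, pointing away, at 33 of the 88 genes (37.5%). The share was 24.9% of all genes, and 30 of the 64 that are no L paralogues (46.9%). ND-MWFE, whose region lies 28 bp from a TSS of TppII, was counted as unpaired by this rule. Among the paired genes are ND-B16.6 with kdn, the citrate synthase gene (228 bp), and ATPsynD with the mitochondrial ribosomal protein gene mRpL55 (95 bp). Of the 33 paired genes, 1 (3.03%), ND-51, had a main-list region within 500 bp, against 389 of the 3481 paired genes overall (11.2%). Of the 55 unpaired ones 3 (5.45%) had one, against 3.4% of unpaired genes overall. These were blw, ND-MWFE and ND-ASHI. At ND-MWFE and ND-ASHI a start site of another gene, TppII or Fum1, is nearer to the summit. How far the rule for pairing shaped these shares was not tested. In the ranked list the shares were 30.3% of the paired and 32.7% of the unpaired oxidative phosphorylation genes, against 41.8% and 51.2% over all genes. Genes other than L paralogues had 33.3% of the paired and 17.6% of the unpaired ones, the reverse of the order over all genes, while L paralogues had none of their 3 paired genes and 57.1% of the unpaired ones.

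Other genes of the pathway were followed in 5 lists, of which 49 of 50 genes were matched by symbol. In these lists 6 genes (12.2%) were nearest to a main-list region, against 8.06% of all genes. Of 12 subunits and carriers that the symbol rule misses, 2 were. Cyt-c1L, a paralogue of cytochrome c1, had regions at 117 (69.8 and 46.1 in the replicates) and 64.4, the nearer 696 bp from its TSS. RFeSP, the Rieske iron-sulfur protein of complex III, had regions at 107 (58.6 and 49.1 in the replicates), 68.9 and 7.23, from 1797 to 10984 bp away. None of 8 assembly factors and none of 10 genes for upkeep and transcription of mitochondrial DNA was nearest to one. Of 14 citrate cycle and pyruvate genes 3 were: Pdhb of the pyruvate dehydrogenase complex at 97.7 and 84 bp, Fum1 at the region it shares with ND-ASHI, and muc, the acetyltransferase of the same dehydrogenase complex, at 79.4 and 6010 bp. The region given to muc lies in an intron of another gene, chm. Of 5 nuclear regulators 1 was nearest to a main-list region, ERR, the estrogen-related receptor, at 76.7 and 169 bp. Within 500 bp of a main-list summit lay 7 of the 49 genes (14.3%), against 5.34% of all genes, with levy (a subunit of complex IV) at 143, Cyt-c-d (a cytochrome c) at 284, CIA30 (an assembly factor of complex I) at 984 and mAcon1 (aconitase) at 61.0 besides Pdhb, Fum1 and ERR. The regions at levy, Cyt-c-d, CIA30 and mAcon1 were each given to another gene by nearest start site. ERR had 2 main-list regions within 500 bp, and the stronger, at 120, was likewise given to another gene. Of the 49, 17 (34.7%) had a ranked region within 500 bp, beside 31.8% of the 88 genes and 48.8% of all genes. The 13 protein-coding genes of mitochondrial DNA had none, as no list held a region on that DNA.

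The promoters were searched for 10 short words on both strands, from 250 bp before to 50 bp after the TSS. TAATCC, the form bound by homeodomains of the Goosecoid and Bicoid type, was in 8 of the 88 (9.09%), against 8.76% of all promoters. TAATTA was in 23.9%, against 20.5%. The word with the largest gap in percentage points among the 10 was GGTCACAC, from the core promoter element called motif 1, in 16 of the 88 (18.2%), against 7.7% of all promoters. It was in 23.4% of the promoters of genes other than L paralogues and in 4.17% of those of L paralogues, and 0.136% of main-list summits held it within 50 bp. ND-MWFE, SdhB and COX4 are among the 16. GAGAG was in 23.9% of the 88 promoters, against 29.8% of all promoters, with 41.7% in L paralogues and 17.2% in the others. The gap between these kinds of gene depended on the window. With 100 bp on either side of the TSS, GAGAG was in 16.7% of L paralogues and 18.8% of the others. In that window it was in 18.2% of the 88 promoters, against 22.5% of all promoters. TATCGATA (DREF) was in 10.2%, against 9.36%, ACAGTG in 17.0%, against 14.0%, CAGGTA (Zelda) in 6.82%, against 6.25%, and CACGTG (an E box) in 4.55%, against 4.23%. ACAGTG was taken from these same data, as the most common word at summits in an earlier analysis. TTACATAA and TTACGTAA, forms of an element described at nuclear genes for mitochondrial proteins in flies, depended on the window. TTACATAA was in 2.27%, against 2.15%, but in 6.82%, against 1.05%, with 100 bp on either side of the TSS. TTACGTAA was in none of the 88, against 0.451%, but in 2.27%, against 0.236%, in that window. A match is a string of letters in the window and shows no binding.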

How the data were processed

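Per the labels, coordinates are on dm6. The aligner and the peak caller were not given in the sources used here. For each replicate and for both together, the authors deposited thresholded and ranked lists of regions, with a score (the scaled irreproducible discovery rate, at most 1000) and a signal value on an unstated scale. Scores were used only for thresholds, and signal values only for description and ranks within 1 list. The ranking behind the main list rests on 2 region sets, neither of which equals a replicate's own list. Deposited q-values and 16 unnamed columns of the joint ranked lists were left unused. No file gives read counts, and the depth is therefore unknown.

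The summit was column 2 plus column 10 plus 1 of the deposited lists. Each region was given to the protein-coding gene with the nearest TSS of any transcript (Ensembl release 115), on 7 arms. Ties went to the first TSS by position. The start and end of all 88 genes were the same in the RefSeq table. Replicate values are those of the region with the longest overlap in each replicate's own ranked list, and the SD is over 2 replicates. Sequences were read from the RefSeq Release 6 genome. Assignment was tested on simulated summits. Python 3.11.15, pandas 2.3.3, numpy 2.4.6, scipy 1.17.1 and matplotlib 3.10.9 were used.

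The genes, lists and words were chosen with earlier results of these data known. Genes named were those nearest to a main-list region, the 6 others with the strongest ranked region, all of complex II, and neighbours with a TSS within 500 bp. ND-MWFE, ND-ASHI and ND-51 came from the planned count of every TSS within 500 bp; further genes were named after their values were seen. Nc73EF of the pathway lists was not matched. Alternatives were other lists, single replicates, stricter thresholds, distance limits, gene sets and start sites, and the overlap and word windows. The ranked-list alternatives and the count with the 130 unlisted regions were added after seeing the data.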

Additional observations from a re-analysis of the deposited data

How the results depend on the processing

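The count of 3 genes nearest to a main-list region became 5 with the conservative list, 1 with summits within 2000 bp (1.14%, against 5.2% of all genes) and 7 with 1 TSS per gene (7.95%, against 8.21%), and it was 3 with either replicate left out. It was 2 (2.27%) at the cap of the score (against 5.93%), in the stronger 50% of regions (4.53%) and with genes of every biotype (6.49%). Without L paralogues it was 2, and with every TSS within 500 bp it was 4 (4.55%, against 5.34%). With 1 TSS per gene the added genes were ND-MWFE, ND-ASHI, COX4 and ND-51L2; the cause of the other changes was not tested. Complex I had 0 genes, but 1 with the conservative list, 1 with either replicate left out, and 3 with every TSS within 500 bp or 1 TSS per gene. Complex III had 1 gene, but 0 with either replicate left out, at the cap of the score, in the stronger 50% of regions, within 2000 bp, with every TSS within 500 bp and with genes of every biotype. Complex IV had 1, but 2 with the conservative list or 1 TSS per gene, and 0 within 2000 bp, with every TSS within 500 bp or without L paralogues. Complexes II and V kept 0 and 1 under every alternative run.

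The median distance of 3391 bp rests on 3 regions. It ranged from 140 to 261 bp with a replicate left out, and was 23052.5 bp with the conservative list, 1765.5 bp at the cap of the score, in the stronger 50% and with every biotype, 140 bp within 2000 bp, 166.5 bp with every TSS within 500 bp, 3633.5 bp with 1 TSS per gene and 21427 bp without L paralogues. The share of regions within 500 bp, 33.3%, was 66.7% with either replicate left out, 16.7% with the conservative list, 50% at the cap, in the stronger 50%, with every biotype and without L paralogues, 100% within 2000 bp and with every TSS within 500 bp, and 37.5% with 1 TSS per gene. The median signal value of 114 ranged from 52.4 to 87.8 with a replicate left out, and was 68.0 with the conservative list, 149 at the cap, in the stronger 50% and with every biotype, 183 within 2000 bp, 192 with every TSS within 500 bp and 161 with 1 TSS per gene. The values with a replicate left out come from the other replicate's own list. Its signal values were below the joint ones at each main-list region described above, so these medians cannot be compared directly with 114. The count of 28 genes with a ranked region within 500 bp was 16 without L paralogues and 28 with either replicate left out. It was 13 with a 200 bp window and 42 with a 1000 bp window. Shares of all genes at these 2 windows are not given here, so these counts show no gap to all genes. With 100 bp on either side of the TSS, shares of promoters were 3.41% for TAATCC (6.46% of all promoters), 7.95% for TAATTA (9.94%), 10.2% for ACAGTG (9.79%), 1.14% for CACGTG (2.88%), 6.82% for TATCGATA (7.83%) and 3.41% for CAGGTA (4.3%), so that all of these but ACAGTG turned from above to below the share of all promoters. TTACATAA and TTACGTAA were higher, at 6.82% (1.05%) and 2.27% (0.236%). No paired analysis was possible because there is 1 group and no test.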
